A study of Caenorhabditis elegans with 3 samples.

Results

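Catalases and superoxide dismutases are the enzymes that remove hydrogen peroxide and superoxide from cells. The 8 genes described here are the 3 catalase genes ctl-1 to ctl-3 and the 5 superoxide dismutase (SOD) genes sod-1 to sod-5 of Caenorhabditis elegans, out of 45343 features in the deposited tables. They were taken by their gene name in those tables, and all 8 were found. The family was chosen by its FPKM values in these libraries, with the higher levels of ctl-1 and ctl-3 in both mutants already known, so those differences are given as a description.

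Messenger RNA was sequenced from whole L4 larvae, the last larval stage, of 3 strains. These were ZG24, which carries the ia03 allele of ahr-1, CZ2485, which carries the ju145 allele of the same gene, and the wild type N2. The gene ahr-1 encodes the worm aryl hydrocarbon receptor, a bHLH-PAS transcription factor. The labels do not describe the lesion of either allele, and no other allele or treatment is named for any strain. There was 1 library per strain, so there is no replicate error, no difference was tested, and both mutant comparisons share the same wild type library.

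Superoxide dismutases turn superoxide into hydrogen peroxide, and catalases split hydrogen peroxide into water and oxygen. In C. elegans, SOD-1 is the main cytosolic and SOD-2 the main mitochondrial enzyme, SOD-3 is a second mitochondrial and SOD-5 a second cytosolic form, and SOD-4 is extracellular or membrane-bound. CTL-2 is the main peroxisomal catalase and CTL-1 is cytosolic. The genes sod-3 and ctl-1 are known as genes that respond to insulin-like signalling through the transcription factor DAF-16.

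The catalase genes lie side by side on chromosome II, all on the same strand. By the files' own coordinates, for which no genome build was stated, ctl-2 (Y54G11A.5) spans 14297220 to 14301974. Next to it, ctl-1 (Y54G11A.6) spans 14303535 to 14306217 and ctl-3 (Y54G11A.13) spans 14307777 to 14310703. In the reference annotation of assembly WBcel235 the coding regions are 497 codons long for ctl-1, 500 for ctl-2 and 512 for ctl-3, counting the longest transcript. The dismutase genes are spread over the genome. On chromosome II lie sod-1 (C15F1.7, 6972644 to 6973850, 180 codons) and sod-5 (ZK430.3, 4417682 to 4419131, 178 codons). The locus of sod-2 (F10D11.1, 221 codons) is on chromosome I at 8429924 to 8435859, that of sod-4 (F55H2.1, 221 codons) on chromosome III at 9491219 to 9500120, and that of sod-3 (C08A9.1, 218 codons) on the X chromosome at 17087807 to 17094149. The locus intervals of ctl-2, sod-1, sod-2, sod-3 and sod-4 in the files also overlap those of other features.

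Values are FPKM, the fragments of a gene scaled both to the length of that gene and to the library's mapped fragments, as the authors deposited them. Read depth in fragments is unknown. Feature by feature, the lowest values were most often 0.812 of wild type in ia03 and 0.930 of wild type in ju145. If such values are 1 fragment each, ia03 held 1.23 times and ju145 1.08 times the fragments of the wild type library. The targeted gene had an FPKM of 0.699 in ia03, 0.569 in ju145 and 0.664 in wild type, and such a whole-gene value checks neither allele. Differences are log2 ratios of FPKM + 1, mutant over wild type, and a gene counted as higher or lower from a 2-fold difference on that scale. It was measured for a comparison if its status in the authors' table was OK and its FPKM was at least 1 in at least 1 of both libraries. Over all measured genes the log2 ratio had a median of -0.02 in ia03 and -0.18 in ju145, so ju145 values are also given relative to that median.

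With 1 library per strain, the catalase genes had other shares of the summed catalase FPKM in the mutant libraries than in wild type. The main dismutases differed little. How fragments matching several catalase genes were assigned is not known, so these shares are uncertain. ctl-1 was 4.51-fold higher in ia03 and 4.10-fold higher in ju145 than in wild type, and ctl-3 was 3.36-fold higher in ia03 and 3.01-fold higher in ju145, as ratios of FPKM. The most abundant catalase gene, ctl-2, had 0.947 times the wild type FPKM in ia03 and 0.863 times in ju145. No measured dismutase gene differed by 2-fold, which leaves out sod-5 in both mutants and sod-2 in ju145. Of the 7 members measured in ia03, 2 were at least 2-fold higher, where 2.52% of all 14783 measured genes were, and 0 were at least 2-fold lower, where 4.26% were. Of the 6 measured in ju145, 2 were higher, against 1.36% of 14686 genes, and 0 were lower, against 3.54%. The members were chosen with these contrasts in view, so nothing is read from those shares.

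**Figure D1:**
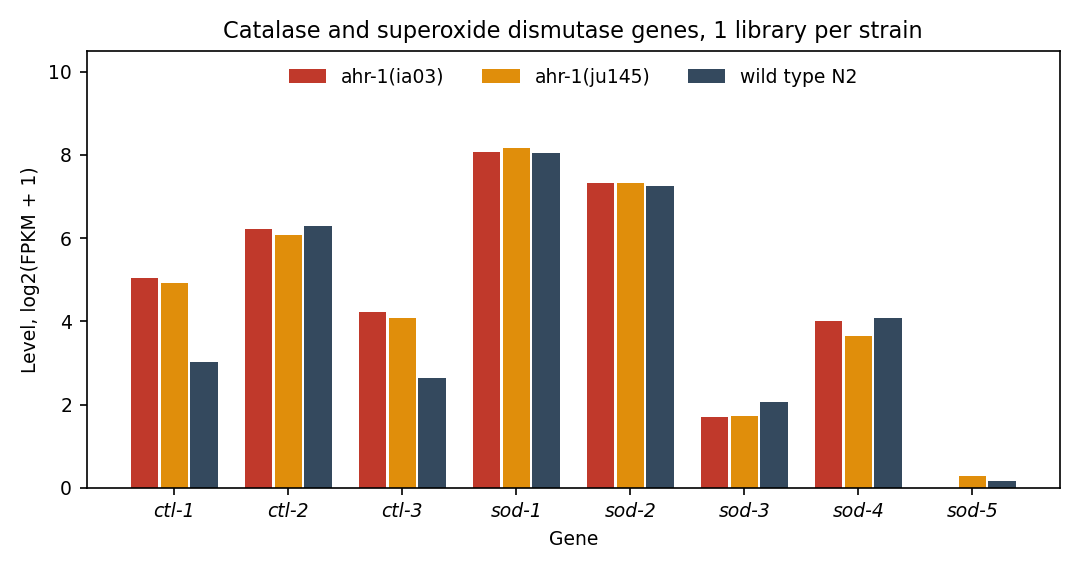
Level of each of the 8 genes as log2(FPKM + 1) in the ahr-1(ia03), ahr-1(ju145) and wild type libraries, 1 bar per library and no error bars because each strain gave 1 library. ctl-1 and ctl-3 stand higher in both mutant libraries, with ctl-1 at 32.0 FPKM in ia03 and 29.1 in ju145 against 7.08 in wild type, and ctl-3 at 17.6 in ia03 and 15.8 in ju145 against 5.25 in wild type. sod-5 is listed at 0 in ia03.

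The cytosolic catalase gene ctl-1 had an FPKM of 32.0 in ia03, 29.1 in ju145 and 7.08 in wild type. Both mutant values lay close together and far above the single wild type value. The log2 ratio was 2.03 in ia03 and 1.89 in ju145, or 2.08 in ju145 relative to the median of all genes. In ia03, 110 of the measured genes had a higher log2 ratio, and in ju145 111 had. In the authors' deposited tables, ctl-1 has a q-value of 3.57e-10 for ia03 and 1.64e-12 for ju145, each from 2 libraries without replicates, so these compare libraries and not strains.

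Its neighbour ctl-3, a catalase gene known from reporters to be expressed in pharyngeal muscle and neurons, had an FPKM of 17.6 in ia03, 15.8 in ju145 and 5.25 in wild type. Again both mutant libraries were higher than wild type. The log2 ratio was 1.58 in ia03 and 1.43 in ju145, or 1.61 in ju145 relative to the median of all genes. A higher log2 ratio was seen for 153 measured genes in ia03 and 144 in ju145. The authors' deposited tables give ctl-3 a q-value of 1.20e-05 for ia03 and 2.35e-06 for ju145.

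Among the 14401 genes measured in both comparisons, 61 were at least 2-fold higher in both mutants (0.424%) and 309 at least 2-fold lower (2.15%). Ordered by the smaller of the mutants' log2 ratios, ctl-1 stood at place 26 and ctl-3 at place 34. Many of the genes above them were listed at 0 in a library. Among the 14155 genes above 0 in all 3 libraries, a selection made with the values in view, 23 were higher in both, and ctl-1 and ctl-3 stood at places 2 and 3. In whole animals, more cells of a type and more RNA per cell cannot be told apart.

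**Figure D2:**
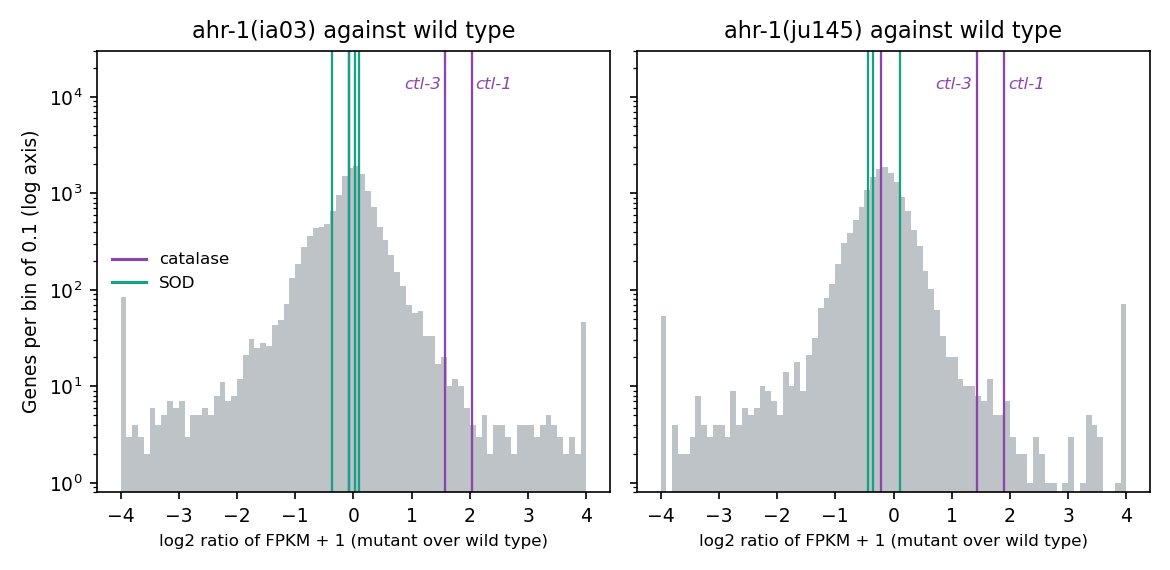
Number of genes (log axis) by log2 ratio of FPKM + 1, in bins of 0.1, for ahr-1(ia03) against wild type on the left and ahr-1(ju145) against wild type on the right, with lines at the measured catalase (purple) and SOD (green) genes. The outermost bars hold all values beyond the axis. ctl-1 and ctl-3 lie in the right tail, at 2.03 and 1.58 in ia03 and at 1.89 and 1.43 in ju145, and the other members lie in the body of the distribution.

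The main peroxisomal catalase gene, ctl-2, had an FPKM of 73.1 in ia03, 66.6 in ju145 and 77.2 in wild type. Its log2 ratio was -0.08 in ia03 and -0.21 in ju145, and -0.02 in ju145 relative to the median of all genes, and it turned to 0.0074 in ju145 when the libraries were rescaled by their upper quartiles. ctl-2 was thus within the middle of all genes, with 42.6% of measured genes at a lower log2 ratio in ia03 and 46.7% in ju145.

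The catalase genes are similar in sequence and the authors' tables do not say how fragments matching several of them were assigned, so the values of single genes are uncertain and the sum is given too. The summed FPKM of the 3 genes was 123 in ia03, 111 in ju145 and 89.5 in wild type. That is 1.37 times wild type in ia03 and 1.25 times in ju145, with a log2 ratio of 0.45 for ia03 and 0.31 for ju145, both under 2-fold. Relative to the median of all genes the ju145 value was 0.50. A higher log2 ratio than that of the sum was seen for 9.91% of measured genes in ia03 and 8.20% in ju145.

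The make-up of the sum differed more than its size. ctl-1 held 26.04% of it in ia03, 26.1% in ju145 and 7.91% in wild type. ctl-3 held 14.4% in ia03, 14.2% in ju145 and 5.86% in wild type. The share of ctl-2 was 59.6% in ia03, 59.8% in ju145 and 86.2% in wild type. Both mutant libraries thus had nearly the same make-up, with ctl-1 at 0.437 of ctl-2 in ia03 and 0.436 in ju145, against 0.0918 in wild type. These ratios within a library do not change with the scaling of the libraries. The ratio of ctl-1 to ctl-3 was 1.81 in ia03, 1.84 in ju145 and 1.35 in wild type.

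Together ctl-1 and ctl-3 were 37.2 FPKM higher in ia03 and 32.5 FPKM higher in ju145 than in wild type. The difference of ctl-2 was -4.06 FPKM in ia03 and -10.6 FPKM in ju145 on the deposited scale. The exons of the 3 genes add up to similar lengths in the annotation, 1554 nt for ctl-1, 1611 nt for ctl-2 and 1631 nt for ctl-3. Those of ctl-1 and ctl-3 overlap no other annotated gene, and those of ctl-2 share 65 nt with Y54G11A.7 on the other strand.

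**Figure D3:**
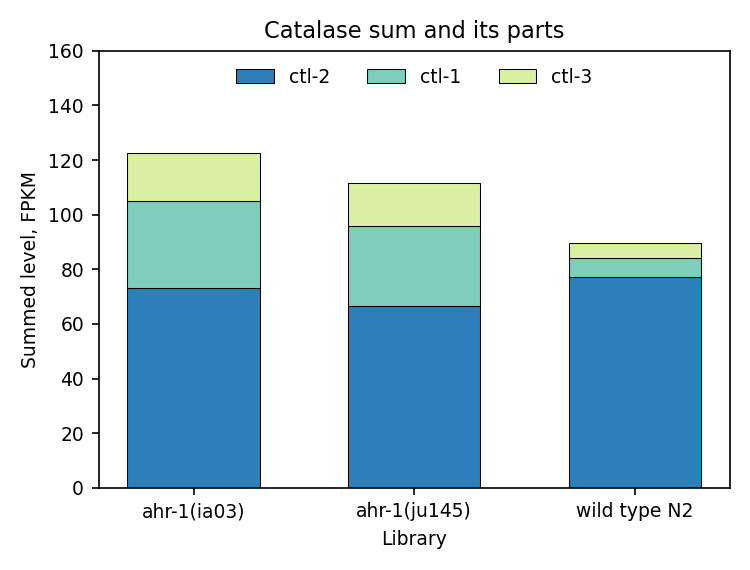
Summed FPKM of the catalase genes in each library, stacked as ctl-2, ctl-1 and ctl-3 from the bottom. The sum is 123 in ahr-1(ia03), 111 in ahr-1(ju145) and 89.5 in wild type, and the parts of ctl-1 and ctl-3 are larger in both mutant libraries.

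Genes around the cluster were examined to see whether the difference extended along the chromosome. The 10 nearest features on each side and Y54G11A.7, which shares the locus interval of ctl-2 in the files, gave 21 neighbours, of which 16 were measured. None differed by 2-fold in either mutant. Among all measured genes 2.52% were higher and 4.26% lower in ia03, and 1.36% higher and 3.54% lower in ju145. At those shares 16 genes may hold none, so nothing is read from that count. The neighbours' log2 ratios ran between -0.40 and 0.28 in ia03, with a median of -0.01. In ju145 they ran between -0.33 and 0.17, with a median of -0.10. The nearest measured gene beyond ctl-2, Y54G11A.4, had an FPKM of 2.35 in ia03, 1.94 in ju145 and 2.25 in wild type. On the other side, Y54G11A.14 had 1.31 in ia03, 1.71 in ju145 and 1.61 in wild type. Y54G11A.7 had 19.6 in ia03, 19.7 in ju145 and 22.1 in wild type. Among the measured genes at this locus, ctl-1 and ctl-3 passed 2-fold, and ctl-2 and the measured neighbours lay within 2-fold.

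**Figure D4:**
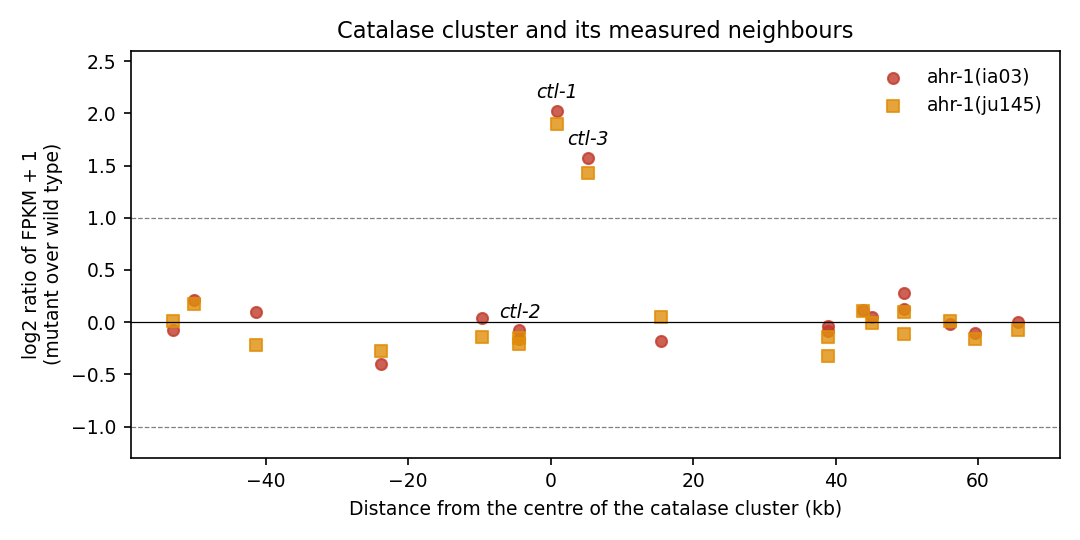
Log2 ratio of FPKM + 1, mutant over wild type, against the distance in kb from the centre of the catalase cluster, for the catalase genes and their 16 measured neighbours. Circles are ahr-1(ia03), squares ahr-1(ju145), and dashed lines mark 2-fold. ctl-1 and ctl-3 lie above the upper line in both mutants, and the neighbours lie between -0.40 and 0.28.

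Among the dismutases, the cytosolic sod-1 was the most abundant, with an FPKM of 267 in ia03, 286 in ju145 and 263 in wild type. The 3 libraries lay within a narrow range. The log2 ratio was 0.02 in ia03 and 0.12 in ju145, or 0.30 in ju145 relative to the median of all genes, with 81.7% of measured genes at a lower ratio there. The mitochondrial sod-2 had an FPKM of 160 in ia03, 159 in ju145 and 151 in wild type. Its log2 ratio was 0.09 in ia03. For ju145 it was 0.07, but the authors' table gives sod-2 the status FAIL there, so it was left out of the counts. In the annotation, 85 nt of the exons of sod-1 and 21 nt of those of sod-2 overlap a gene on the other strand.

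The second mitochondrial form, sod-3, was low in all libraries, with an FPKM of 2.24 in ia03, 2.28 in ju145 and 3.17 in wild type. Wild type was the highest of the 3. The ratio of FPKM was 0.707 in ia03 and 0.721 in ju145, and the log2 ratio was -0.36 in ia03 and -0.34 in ju145, or -0.16 in ju145 relative to the median of all genes. In ia03, 20.3% of measured genes had a lower log2 ratio and in ju145 30.9%. As a share of the mitochondrial pair, sod-3 made up 1.38% in ia03, 1.42% in ju145 and 2.06% in wild type. Its annotated exons overlap genes on the other strand by 89 nt.

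The extracellular form, sod-4, had an FPKM of 15.2 in ia03, 11.5 in ju145 and 15.999 in wild type. Here ju145 stood apart and ia03 lay near wild type. The log2 ratio was -0.07 in ia03 and -0.44 in ju145, or -0.26 in ju145 relative to the median of all genes. The authors' deposited table gives sod-4 in ju145 a p-value of 0.0255 and a q-value of 0.149. Its annotated exons share 175 nt with ctr-9 (B0464.2) on the other strand, which had an FPKM of 39.4 in ia03, 34.3 in ju145 and 43.4 in wild type, so fragments of sod-4 and ctr-9 may not be told apart where they overlap.

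The minor cytosolic form, sod-5, was listed at 0 in ia03, had an FPKM of 0.213 in ju145 and 0.117 in wild type. These are among the lowest values above 0, with 11.2% of detected features below it in ju145 and 7.49% in wild type. The authors' status for sod-5 was NOTEST in both tables, and no ratio is given.

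The summed FPKM of the dismutases was 445 in ia03, 458 in ju145 and 433 in wild type, with a log2 ratio of 0.04 for ia03 and 0.08 for ju145, or 0.26 in ju145 relative to the median of all genes. In each library sod-1 made up the larger part, with 60.1% in ia03, 62.3% in ju145 and 60.7% in wild type, followed by sod-2 with 36.0% in ia03, 34.6% in ju145 and 34.8% in wild type. The dismutase sum was 3.63 times the catalase sum in ia03, 4.11 times in ju145 and 4.84 times in wild type. The ju145 sum and shares take in sod-2, which was left out of the ju145 counts for the status FAIL.

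FPKM is scaled to length, so levels can also be set in order across the members. In both mutant libraries the order from high to low was sod-1, sod-2, ctl-2, ctl-1, ctl-3, sod-4, sod-3 and sod-5. In wild type sod-4 stood above ctl-1 and ctl-3, and the order was otherwise the same. Of detected features, 74.1% lay below ctl-1 in ia03 and 74.7% in ju145, against 43.8% in wild type. With 1 library per strain it cannot be said which neighbours in this order differ beyond their spread.

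Set against each other, the mutants differed by less than 2-fold for all 6 members measured in both, a size of difference at which 1.28% of 14384 genes were higher in ia03 than in ju145 and 1.38% lower. The log2 ratio of ia03 over ju145 was 0.13 for ctl-1, 0.13 for ctl-2 and 0.15 for ctl-3, near the median of 0.15 over all genes. After rescaling by the median ratio these turned to -0.049 for ctl-1, -0.052 for ctl-2 and -0.027 for ctl-3. sod-1 was at -0.10 and sod-3 at -0.02. sod-4 was at 0.37. As deposited that was the widest gap, but under the median ratio sod-1 was at -0.28 and sod-4 at 0.20, and under the upper quartile sod-1 was at -0.26 and sod-4 at 0.22, so the order of these gaps depends on the scaling.

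The genes whose pair of log2 ratios lay nearest to that of a member, by Euclidean distance over both comparisons, were also listed. For ctl-1 these were R10E8.10, T21C9.17, F28F5.4, Y67D8C.1 and F14F3.4, at distances of 0.10 to 0.48. The first 4 were listed at 0 in wild type, while F14F3.4 had an FPKM of 16.24 in ia03, 11.01 in ju145 and 3.48 in wild type. For ctl-3 they were Y9C2UA.2, hlh-15, the collagen gene col-176, Y39G8B.10 and W02A2.9, at distances of 0.18 to 0.25. Of these, Y9C2UA.2 and hlh-15 were listed at 0 in wild type, and Y39G8B.10 had an FPKM of 0.713 there. The level of col-176 was 113 in ia03, 82.0 in ju145 and 33.5 in wild type. W02A2.9 had an FPKM of 248 in ia03, 285 in ju145 and 92.2 in wild type. Both values of each pair rest on 1 library per strain and share the wild type library.

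Other genes of oxidant removal, oxidant production and metal handling were read from lists chosen with earlier results of these data known. Across the lists of peroxiredoxins, glutathione peroxidases, the thioredoxin system, glutathione synthesis and glutaredoxins, oxidant producers and haem peroxidases, and metal handling, 43 of 49 genes were measured in each comparison. None were at least 2-fold higher in either mutant, 1 was lower in ia03 and 0 in ju145. Over all measured genes 2.52% were higher and 4.26% lower in ia03, and 1.36% higher and 3.54% lower in ju145. At those shares a list of this size would hold few such genes, so nothing is read from these counts. The median log2 ratio was 0.06 in ia03 and -0.13 in ju145, against -0.02 in ia03 and -0.18 in ju145 over all measured genes. The 1 lower gene was the glutathione peroxidase gene gpx-8, listed at 0 in ia03, with an FPKM of 0.852 in ju145 and 1.02 in wild type.

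The other peroxide-removing enzymes lay within 2-fold, gpx-8 apart. The peroxiredoxin gene prdx-2, whose product removes peroxide in the cytosol, had an FPKM of 1069 in ia03, 1155 in ju145 and 909.9 in wild type. The mitochondrial prdx-3 had 315 in ia03, 333 in ju145 and 288 in wild type, and prdx-6 had 55.7 in ia03, 49.3 in ju145 and 56.1 in wild type. The list medians were 0.13 in ia03 and 0.21 in ju145. For the 8 glutathione peroxidase genes the median was -0.03 in ia03 and -0.13 in ju145. Among them gpx-3 had an FPKM of 10.2 in ia03, 6.25 in ju145 and 6.03 in wild type, and gpx-7 had 35.8 in ia03, 30.2 in ju145 and 47.5 in wild type. The levels of gpx-6 were 3.44 in ia03, 3.87 in ju145 and 2.28 in wild type.

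In the thioredoxin system, 6 of 8 genes were measured, with a median of 0.10 for ia03 and -0.21 for ju145. The thioredoxin reductase gene trxr-1 had an FPKM of 59.7 in ia03, 46.2 in ju145 and 71.0 in wild type. Of glutathione synthesis and glutaredoxins, 8 of 9 were measured, with a median of -0.08 for ia03 and -0.06 for ju145, and gcs-1, the rate-limiting enzyme of glutathione synthesis, had 65.7 in ia03, 57.2 in ju145 and 70.5 in wild type. The glutaredoxin gene glrx-22 had 103 in ia03, 93.0 in ju145 and 73.3 in wild type. Of the oxidant producers and haem peroxidases 10 of 12 were measured (medians 0.07 in ia03 and -0.20 in ju145). The dual oxidase gene bli-3, whose product makes peroxide for cuticle cross-linking, had 15.5 in ia03, 12.03 in ju145 and 13.95 in wild type, and the haem peroxidase gene skpo-1 had 28.5 in ia03, 30.4 in ju145 and 43.6 in wild type. Of the metal handling genes 8 of 9 were measured (medians 0.03 in ia03 and 0.05 in ju145). Among these the copper chaperone gene cuc-1 had 581 in ia03, 586 in ju145 and 530 in wild type, and the ferritin gene ftn-2 had 523 in ia03, 572 in ju145 and 501 in wild type.

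Peroxisomes house CTL-2, and genes of peroxisome import and peroxisomal beta-oxidation were looked at for that reason. All 14 measured in ia03 were above wild type, with a median log2 ratio of 0.29. None were at least 2-fold higher, where 2.52% of all measured genes were. In ju145, 6 of 13 were above wild type and the median was -0.09. Over all measured genes, 52.5% were below wild type in ia03 and 71.7% in ju145, with medians at -0.02 for ia03 and -0.18 for ju145. The hydratase gene maoc-1 had an FPKM of 146 in ia03, 87.9 in ju145 and 94.4 in wild type, and the thiolase gene daf-22 had 118.96 in ia03, 88.7 in ju145 and 83.1 in wild type. The gene prx-5, which encodes the import receptor, had 24.4 in ia03, 18.3 in ju145 and 21.2 in wild type.

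Of 22 genes of insulin-like signalling and stress regulation, 21 were measured and none differed by 2-fold in either mutant (medians -0.03 in ia03 and -0.17 in ju145). Among all measured genes 2.52% were higher and 4.26% lower in ia03, and 1.36% higher and 3.54% lower in ju145. A list of this size may hold none at those shares, so nothing is read from that count. daf-16, which encodes the FOXO transcription factor of the insulin pathway, had an FPKM of 59.8 in ia03, 55.4 in ju145 and 62.4 in wild type. skn-1, which encodes the worm counterpart of NRF factors, had 46.1 in ia03, 48.9 in ju145 and 59.4 in wild type. daf-2, the insulin-like receptor gene, had 15.4 in ia03, 13.2 in ju145 and 13.2 in wild type.

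Of 15 measured genes known as DAF-16 targets, other than the members, 1 was at least 2-fold higher in ia03 and none in ju145, with a median of -0.25 for ia03 and -0.09 for ju145. Over all measured genes 2.52% were higher and 4.26% lower in ia03, and 1.36% higher and 3.54% lower in ju145. Nothing is read from such counts in short lists, here or for the SKN-1 targets below. The higher gene was the lysozyme gene lys-7, with an FPKM of 35.9 in ia03, 11.7 in ju145 and 11.2 in wild type, so unlike ctl-1 and ctl-3 it was near wild type in ju145. The metallothionein gene mtl-1 had 3.997 in ia03, 3.63 in ju145 and 3.61 in wild type. The small heat shock gene hsp-16.2 had 32.1 in ia03, 37.3 in ju145 and 61.7 in wild type. Of the 9 genes known as SKN-1 targets, 1 was at least 2-fold lower in ia03 and none differed in ju145 (medians 0.05 in ia03 and 0.00 in ju145). That was gst-30, with 1.04 in ia03, 2.84 in ju145 and 3.11 in wild type, while gst-38 had 24.1 in ia03, 15.6 in ju145 and 11.98 in wild type, and gst-4 had 55.9 in ia03, 58.1 in ju145 and 53.97 in wild type.

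**Figure D5:**
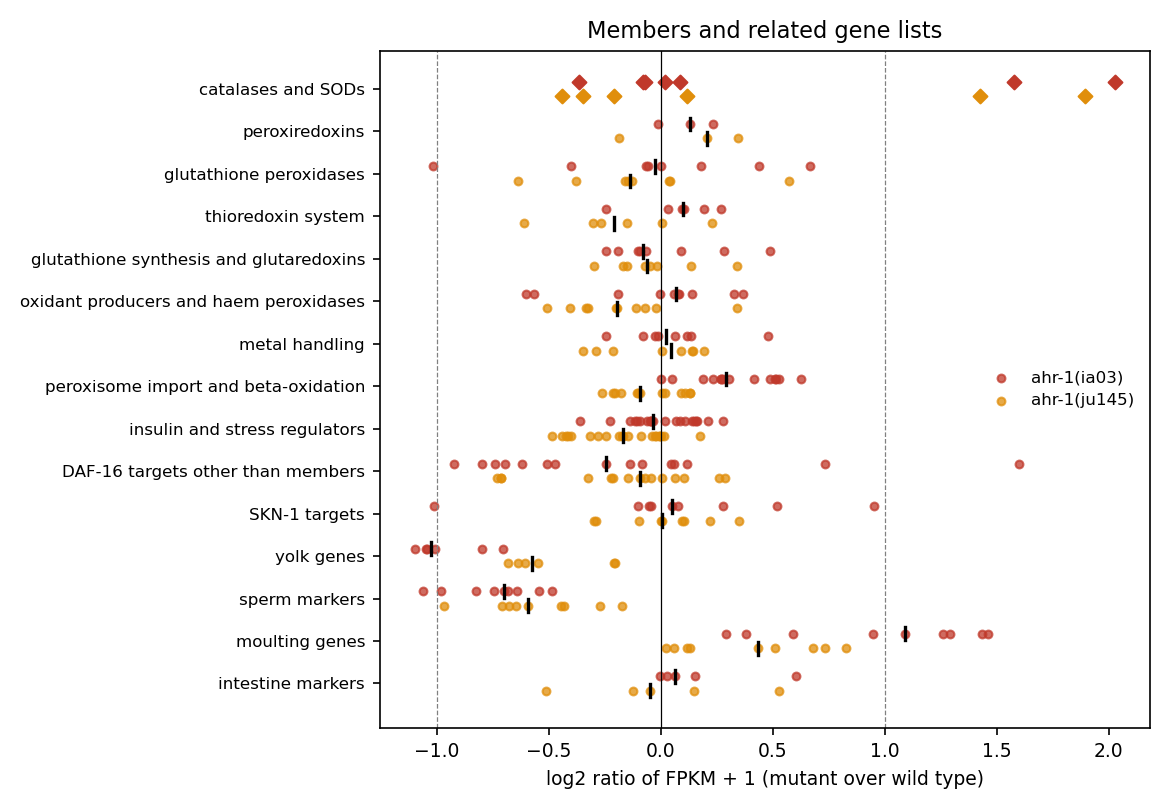
Log2 ratio of FPKM + 1, mutant over wild type, for each measured catalase and SOD gene (diamonds) and each measured gene of the lists (dots), with ahr-1(ia03) above ahr-1(ju145) in each row. Black ticks are list medians and dashed lines mark 2-fold. In the top row ctl-1 and ctl-3 lie beyond the right dashed line in both mutants.

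Markers of stage and tissue differed between the libraries as well. Of 9 moulting genes, 5 passed 2-fold upwards in ia03 and 0 in ju145 (medians 1.09 in ia03 and 0.44 in ju145), with a summed FPKM of 709 in ia03, 431 in ju145 and 316 in wild type. Of 6 yolk genes, 4 were at least 2-fold lower in ia03 and 0 in ju145 (medians -1.02 in ia03 and -0.58 in ju145), and their summed FPKM was 4183 in ia03, 5751 in ju145 and 8211 in wild type. Of 9 sperm markers, 1 was at least 2-fold lower in ia03 and 0 in ju145 (medians -0.70 in ia03 and -0.59 in ju145), with summed values of 1874 in ia03, 2503 in ju145 and 3511 in wild type. The shares over all measured genes were 2.52% higher and 4.26% lower in ia03, and 1.36% higher and 3.54% lower in ju145. These lists are short and were chosen with earlier results of these data known, so nothing is read from their counts. No gene of these lists was listed at 0 in any library. Their part in the ctl-1 and ctl-3 differences was not tested.

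No gene of the tissue lists that was measured differed by 2-fold in either mutant. At the shares over all measured genes given above, short lists would hold few such genes, so nothing is read from that count. The epidermis marker dpy-7, a cuticle collagen gene, was left out because the authors' tables give it the status FAIL, and it was picked out here after its values were seen. Its FPKM was 161 in ia03, 111 in ju145 and 54.5 in wild type, higher in both mutant libraries, and its part in the ctl-1 and ctl-3 differences was not tested. For the 5 intestine markers measured the median was 0.06 in ia03 and -0.05 in ju145. It was 0.32 in ia03 and -0.06 in ju145 for 7 epidermis markers, and -0.16 in ia03 and -0.01 in ju145 for 6 body wall muscle markers. For 7 neuron markers it was -0.04 in ia03 and -0.11 in ju145, and for 7 germline markers -0.30 in ia03 and -0.13 in ju145. The summed FPKM of the intestine list was 4079 in ia03, 4918 in ju145 and 3620 in wild type. For the epidermis list it was 434 in ia03, 329 in ju145 and 263 in wild type. The body wall muscle list summed to 3470 in ia03, 3994 in ju145 and 4013 in wild type. Neuron markers summed to 323 in ia03, 336 in ju145 and 326 in wild type, and germline markers to 805, 900 and 1017 in the same order. These sums take in all genes found, 7 for the intestine, also those left out of a median for the status FAIL. No marker of these 5 lists was listed at 0.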

How the data were processed

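The submitters' processing notes name TopHat (1.3.1), Cufflinks (1.3.0) with Cuffdiff, Bowtie2 (2.0.2), SAMtools (0.1.16) and FastQC, without saying what each did. No genome build is given there. Per the labels, RNA was extracted with TRIzol and treated with DNase. The authors deposited 1 table per mutant with the FPKM of both libraries, a p-value and a q-value per feature. Both tables hold the same wild type values for each of 45343 features and were joined on the sequence name.

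Log2 ratios of FPKM + 1 were taken over features marked OK that reached FPKM 1 in either library, which understates differences of low genes. A size limit of 2-fold stood in for a test, since each group had 1 library. The members and lists were chosen with earlier results of these data known. Genes open to naming were the members, 10 neighbours on each side of the catalase cluster and the 5 genes nearest in pattern to a member past the limit. List genes past the limit and up to 4 others per list with wide ratios were open to naming too. Not all of these are named, and the moulting, yolk and sperm genes past the limit are given only as counts. Outside this rule bli-3, cuc-1, ftn-2, prx-5, daf-16, skn-1, daf-2, mtl-1 and gst-4 were named for their roles, with their values in view. Of the list genes, 152 matched by symbol in the files, 15 by RefSeq locus tag (assembly WBcel235) and 2 not at all. Gene lengths, strands and overlaps came from the Ensembl release of WBcel235. Alternatives were other pseudocounts, floors, limits, scalings and no status filter. Computation used Python 3.11.15, numpy 2.4.6, pandas 2.3.3 and matplotlib 3.10.9.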

Additional observations from a re-analysis of the deposited data

How the results depend on the processing

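With 1 library per strain, no error, test or left-out replicate was possible, and no paired analysis was possible because each group had a single library. Depth in fragments is unknown, which limits the low genes sod-3 and sod-5 most, and sod-5 has no ratio under any setting. ctl-1 and ctl-3 stayed at least 2-fold higher in both mutants under pseudocounts of 0.1 and 5 and under both rescalings. With a pseudocount of 5, ctl-3 was close to the limit, at a log2 ratio of 1.14 in ia03 and 1.02 in ju145. With a 4-fold limit ctl-1 passed in ia03 (2.03) but not in ju145 (1.89), and ctl-3 passed in neither (1.58 in ia03 and 1.43 in ju145), by the construction of that limit. Rescaling raised ju145 by 0.21 (median ratio) or 0.22 (upper quartile) on the log2 scale, which put ctl-2 in ju145 against wild type at 0.0074 under the upper quartile. The ia03 over ju145 ratios changed sign under the median ratio and the upper quartile for ctl-1 (-0.049 and -0.027), ctl-2 (-0.052 and -0.030), ctl-3 (-0.027 and -0.0055), sod-2 (-0.17 and -0.15) and the catalase sum (-0.048 and -0.026). Of these, sod-2 did not count as measured in that comparison, for its status FAIL in ju145. Of all measured genes, 2.52% were higher and 4.26% lower in ia03, and 1.36% and 3.54% in ju145. The lower share in ju145 was 5.78% with a pseudocount of 0.1, 2.34% under the median ratio and 2.30% under the upper quartile. Higher genes made up 27.8% of the called genes in ju145 as deposited, 42.0% under the median ratio and 42.6% under the upper quartile. A pseudocount of 5 gave 1.02% higher and 2.45% lower in ia03, and 0.708% and 1.68% in ju145. A limit of 1.5-fold gave 6.68% and 13.2% in ia03 and 2.94% and 13.8% in ju145, and one of 4-fold gave 0.758% and 1.29% in ia03 and 0.708% and 1.00% in ju145.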
